A study of Homo sapiens with 12 samples.

Results

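NF-κB is a family of transcription factors made from pairs of the subunits RELA, REL, RELB, NFKB1 and NFKB2. In resting cells IκB proteins hold these dimers in the cytoplasm, and receptor signals release them by way of the IKK kinases, so that they enter the nucleus and bind κB sites in DNA. Several of their targets are parts of the pathway itself, among them the inhibitors that shut the response off again, and in myeloid cells the pathway is known for inflammatory and adhesion genes. The genes described are 10 of the 20003 genes listed for every sample. They are the subunit genes NFKB1, NFKB2 and RELB, the inhibitor genes NFKBIA and TNFAIP3, the receptor-adaptor genes BIRC3 and TRAF1, and ICAM1, NOD2 and POU2F2. They were found by their symbols, and they had been selected on measured values of these same samples, namely the OGP46 change in both cell lines and the low values of number 2 in NB4. For that reason their values in those contrasts are a description. The number of the 10 that passed the threshold of the fit across all genes is given beside the share of all genes that did, and nothing is read from it.

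The samples came from NB4 cells, an acute promyelocytic leukemia cell line that carries PML-RARα, and from Kasumi-1 cells, an acute myeloid leukemia cell line with the AML1-ETO fusion. In each line, 3 control samples received DMSO and 3 samples received 1 μM OGP46, a compound tested as an inducer of differentiation. The labels and the methods of the study give 48 h of incubation for all 4 groups, while a legend of the study gives a longer one. A legend of the study speaks of independent experiments for the sequencing, but the labels do not tie the 3 samples of a group to separate cultures, so part of the spread between them may be technical. Expression was given as FPKM, fragments scaled for exon length and for the total of mapped fragments, so levels can be compared between genes of different length. Per sample, the total FPKM ranged from 248207 to 310262, and 9339 to 9746 genes reached 1 FPKM. The read depth is unknown. The cell lines were told apart by their markers, since the summed FPKM of KIT, CD34, TRH, ERG and POU4F1 was between 239 and 301 in the 6 Kasumi-1 samples and between 0.625 and 3.71 in the 6 NB4 samples. Of the 5 markers listed for NB4, DEFB1, LGALS12 and CCNA1 were higher in every NB4 sample than in any Kasumi-1 sample. FGF13 went the other way, and so did HGF in the controls. HGF was at 7.65, 7.70 and 11.2 FPKM in the NB4 controls and at 12.9, 11.5 and 16.0 in the Kasumi-1 controls. With OGP46 the lines overlapped for HGF, at 3.99, 8.03 and 16.7 FPKM in NB4 and 16.3, 12.7 and 18.2 in Kasumi-1. FGF13 was at 0 in every NB4 sample and between 0.109 and 0.342 FPKM in the Kasumi-1 samples.

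The stretches that match the κB consensus near the start sites are shown because this is the DNA element that the family binds. The table of promoters (RefSeq, build GRCh38.p14) gave 15 windows for 9 of the 10 genes, each with 250 bases before a start site and 50 after it, and RELB had no entry. The consensus of 10 bases was searched on both strands. It is close to its own reverse complement, and a stretch that matched on both strands was counted once. At least 1 match was found for 5 of the 9 genes, against 7.09% of the 27305 symbols in the table, and in 6 of the 15 windows, against 5.91% of all 35116 windows. In each run below, written 5′ to 3′ on the strand of the gene, the capitals mark the matching bases, and bases are counted from the start site of the window.
NFKB1, chr4:102501300-102501329, plus strand, bases -49 to -40: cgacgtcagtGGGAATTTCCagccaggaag
NFKB2, chr10:102394462-102394490, plus strand, bases -107 to -97, with 2 overlapping matches: aaacgtcatGGGAATTCCCCcctccgggg
NFKB2, chr10:102394490-102394519, plus strand, bases -78 to -69: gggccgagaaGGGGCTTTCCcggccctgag
NFKB2, chr10:102395519-102395548, plus strand, bases -176 to -167 of a later start site: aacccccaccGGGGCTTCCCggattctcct
NFKB2, chr10:102395674-102395703, plus strand, bases -21 to -12 of that later start site: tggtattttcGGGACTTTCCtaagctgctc
NFKBIA, chr14:35404811-35404840, minus strand, bases -81 to -72: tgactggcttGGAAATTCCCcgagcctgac
TNFAIP3, chr6:137867188-137867217, plus strand, bases -67 to -46, with 2 matches: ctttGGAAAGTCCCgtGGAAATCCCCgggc
BIRC3, chr11:102317275-102317304, plus strand, bases -199 to -190: tttgggtcatGGAAATCCCCgagtgggttt
BIRC3, chr11:102317339-102317368, plus strand, bases -135 to -126: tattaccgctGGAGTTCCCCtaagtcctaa

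In GENCODE 29 (GRCh38), the runs of NFKBIA and BIRC3 lie before the annotated gene, and the NFKB2 run at bases -176 to -167 lies inside the gene but in no exon. The matching bases of NFKB1 also lie before the gene, whose annotated start is the last base of the run, and those of the other NFKB2 runs and of TNFAIP3 lie in annotated exons. The windows of ICAM1, NOD2, TRAF1 and POU2F2 held no match to these letters. A match is a description of the sequence, and binding was not measured. The genes themselves lie at chr4:102501329-102617302 (NFKB1), chr10:102394110-102402529 (NFKB2), chr19:45001430-45038198 (RELB), chr14:35401511-35404749 (NFKBIA), chr6:137867188-137883312 (TNFAIP3), chr11:102317450-102339403 (BIRC3), chr19:10270835-10286615 (ICAM1), chr16:50693588-50734041 (NOD2), chr9:120902393-120929173 (TRAF1) and chr19:42086110-42196585 (POU2F2). Annotated antisense genes overlap TNFAIP3, ICAM1, NOD2 and POU2F2. The kit kept the strand, but whether the counting used it is not stated, so reads of these partners may be included.

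In NB4 cells, each of the 10 genes was higher with OGP46 than in the same-numbered control in all 3 pairs, and each was lowest in number 2 in both groups. Over all genes tested, 52.9% were higher in all 3 pairs and 21.4% were lowest in number 2 in both groups. Because number 2 was so low, the control and OGP46 ranges overlapped for all 10 genes, whereas 32.7% of all genes had every OGP46 sample above every control. Without the number 2 samples, the OGP46 and control values did not overlap for any of the 10, where 51.2% of all genes had both remaining OGP46 samples above both remaining controls.

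**Figure D1:**
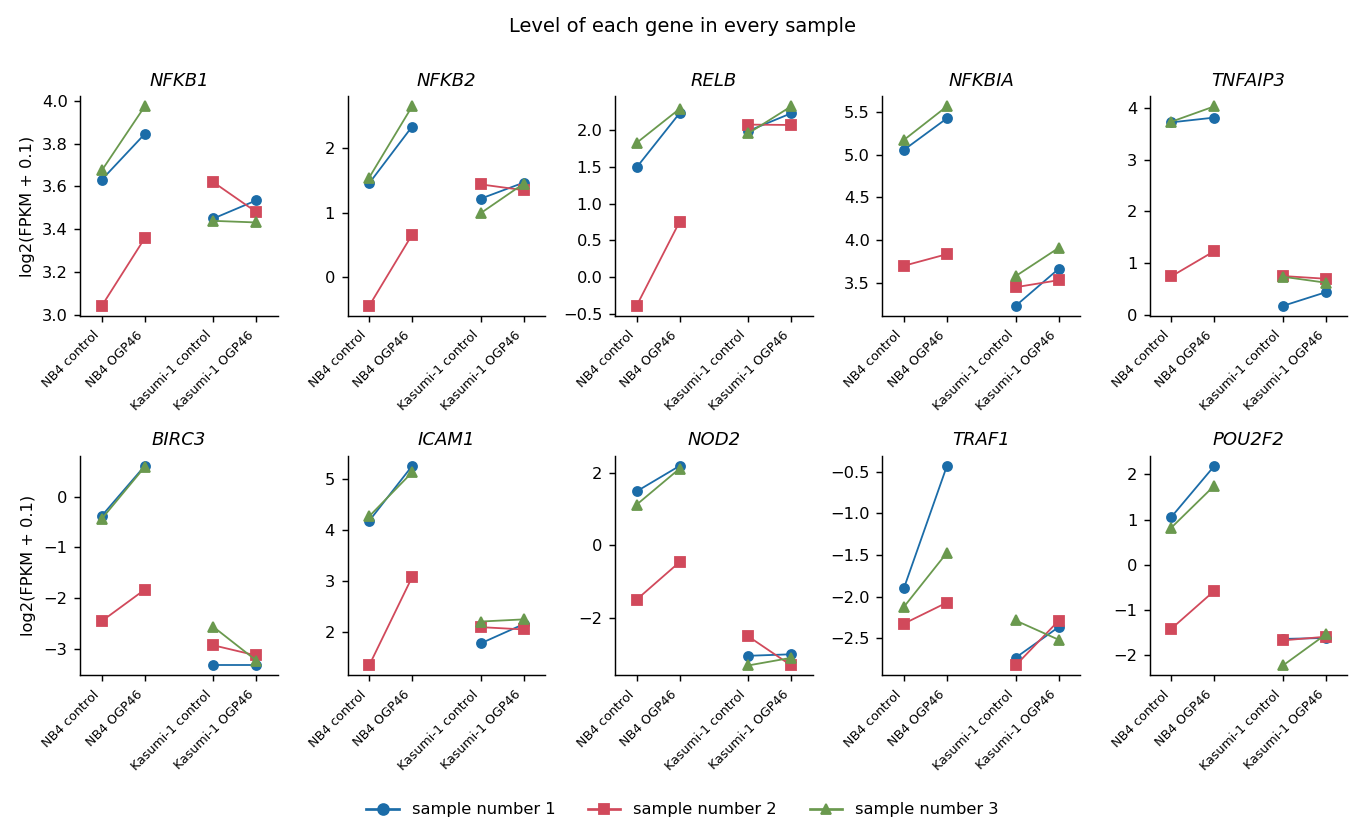
Level of each of the 10 genes in every sample, as log2(FPKM + 0.1) on the vertical axis (its range differs between panels), for control and OGP46 samples of NB4 and Kasumi-1; lines join samples with the same number. In NB4 every line goes up and number 2 (red squares) lies below numbers 1 and 3, while the Kasumi-1 lines lie close together or go in both directions.

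Among the subunit genes, NFKB2 encodes p100, the precursor of p52. Its FPKM in NB4 was 2.65, 0.636 and 2.82 in controls 1, 2 and 3 and 4.96, 1.48 and 6.19 with OGP46. The OGP46 sample was 1.87, 2.33 and 2.19 times its same-numbered control, and yet OGP46 sample 2 lay below controls 1 and 3. RELB, the usual partner of p52, was at 2.71, 0.662 and 3.44 FPKM in the controls and at 4.58, 1.58 and 4.78 with OGP46. Its ratios were 1.69, 2.39 and 1.39, and its level in number 2 was again under that of the other controls. NFKB1, which encodes p105, the precursor of p50, differed least between samples, with 12.3, 8.13 and 12.7 FPKM in the controls and 14.3, 10.1 and 15.6 with OGP46. All 3 of its ratios were small, at 1.16, 1.25 and 1.23.

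Among the inhibitors, NFKBIA encodes IκBα, which holds RELA-containing dimers in the cytoplasm. It had the highest mean of the 10 genes in NB4, with 33.2, 12.9 and 36.0 FPKM in the controls and 43.0, 14.2 and 47.4 with OGP46. Its OGP46 level was 1.29, 1.10 and 1.31 times that of the control of the same number. TNFAIP3 encodes A20, a ubiquitin-editing enzyme that limits signalling to IKK, and was at 13.2, 1.57 and 13.3 FPKM in the controls and at 14.0, 2.25 and 16.3 with OGP46. Its ratios of 1.07, 1.43 and 1.23 were small beside the gap between number 2 and the other samples, where number 2 held 11.9% of the mean of numbers 1 and 3 in the controls and 14.8% with OGP46.

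BIRC3 encodes cIAP2, a ubiquitin ligase recruited to receptors of the TNF family, and TRAF1 encodes an adaptor that works with it. BIRC3 was at 0.669, 0.0830 and 0.639 FPKM in the NB4 controls and at 1.42, 0.181 and 1.40 with OGP46. The ratios of BIRC3 were alike in the 3 pairs, at 2.12, 2.18 and 2.19. TRAF1 was at 0.168, 0.0996 and 0.130 FPKM in the controls and at 0.642, 0.138 and 0.260 with OGP46. TRAF1 was the least abundant of the 10 genes and the one whose pairs differed most, with ratios of 3.81, 1.38 and 2.01. It was also the only one of the 10 in which OGP46 sample 2 was not below both controls 1 and 3.

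ICAM1 encodes an adhesion molecule that binds leukocyte integrins. It had 18.1, 2.44 and 19.2 FPKM in the NB4 controls and 38.3, 8.35 and 35.1 with OGP46, which gave ratios of 2.12, 3.43 and 1.83. The highest ratio was that of number 2, the pair with the lowest levels. NOD2 encodes an intracellular sensor of bacterial cell wall fragments that signals to NF-κB, and had 2.69, 0.252 and 2.06 FPKM in the controls and 4.44, 0.621 and 4.21 with OGP46. Its ratios were 1.65, 2.47 and 2.04. POU2F2 encodes OCT2, a POU-domain transcription factor best known from B cells, and had 1.98, 0.276 and 1.67 FPKM in the controls and 4.45, 0.571 and 3.26 with OGP46, with ratios of 2.25, 2.07 and 1.96. In NOD2 and POU2F2, as in ICAM1, number 2 stayed far below the others in both groups.

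**Figure D2:**
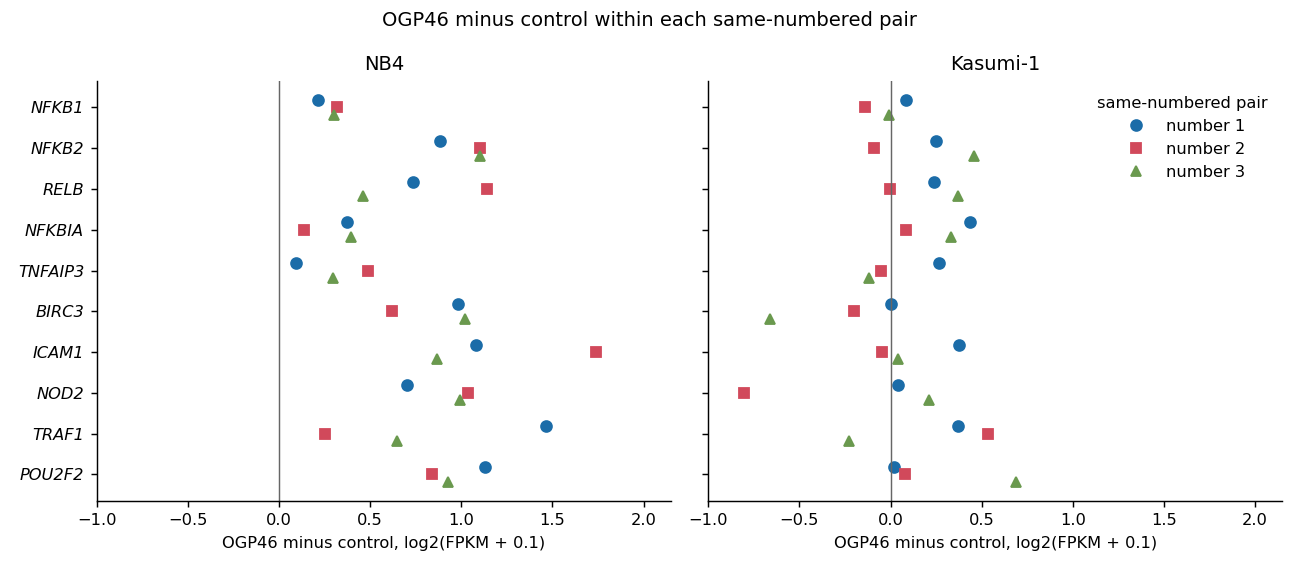
OGP46 minus control within each same-numbered pair, as a difference of log2(FPKM + 0.1) on the horizontal axis, for the 10 genes in NB4 (left) and Kasumi-1 (right). All NB4 points lie to the right of 0, while the Kasumi-1 points lie on both sides.

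Averaged over the 3 samples, the difference in log2(FPKM + 0.1) between OGP46 and control in NB4 was 1.23 ± 0.83 (SE, n = 3 per group) for ICAM1 and 1.03 ± 0.63 for NFKB2. It was 0.96 ± 0.82 for POU2F2, 0.91 ± 0.90 for NOD2, 0.87 ± 0.75 for BIRC3, 0.79 ± 0.40 for TRAF1 and 0.78 ± 0.60 for RELB. The smallest values were those of NFKBIA at 0.30 ± 0.51, TNFAIP3 at 0.29 ± 0.94 and NFKB1 at 0.28 ± 0.21. The median of the 10 was 0.83, beside 0.18 over all 11750 genes tested. With limma, 0 of the 10 genes passed the threshold, an adjusted p below 0.05 with a difference of at least 0.58 (1.49-fold), where 1.45% of all genes were called higher. At that size, 0 of the 10 had an unadjusted p below 0.05, where 663 of all 11750 genes did in either direction. With a replicate block added to the fit, 6 of the 10 were called higher, namely NFKB2, RELB, BIRC3, ICAM1, NOD2 and POU2F2, where 5.06% of all genes were called higher. The standard errors of these 6 were then between 0.11 and 0.18. Since the genes were chosen on this contrast, neither count is evidence about them. The direction in NB4 stayed positive for all 10 under TPM scaling and under median centring, while leaving out control 2 alone turned TNFAIP3 to -0.70, NFKBIA to -0.17 and NOD2 to -0.02, leaving out OGP46 sample 1 turned TNFAIP3 to -0.10, and leaving out OGP46 sample 3 turned TNFAIP3 to -0.21 and NFKBIA to -0.01. Leaving out both number 2 samples gave 6 of the 10 called. The count over all genes, given in the closing section, rose in that fit too, and nothing is read from the 6.

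The difference between sample numbers was larger than the OGP46 difference for each of the 10 genes except TRAF1 when both were taken in log2(FPKM + 0.1). Number 2 minus the mean of numbers 1 and 3 was -2.85 ± 0.11 (SE) for TNFAIP3, -2.71 ± 0.14 for NOD2, -2.50 ± 0.15 for ICAM1 and -2.45 ± 0.14 for POU2F2. It was -2.23 ± 0.19 for BIRC3, -1.89 ± 0.12 for NFKB2, -1.78 ± 0.14 for RELB and -1.54 ± 0.09 for NFKBIA. The smallest differences were -0.72 ± 0.30 for TRAF1 and -0.58 ± 0.09 for NFKB1. With a pseudocount of 1, the difference shrank to -0.82 for BIRC3, -1.57 for NOD2 and -1.38 for POU2F2. It was then -1.29 for NFKB2, -1.21 for RELB and -0.20 for TRAF1, so the size for genes of low level depends on the pseudocount. By the threshold above, 9 of the 10 were called lower in number 2, all but TRAF1, where 3.06% of all genes were called lower. The low values of number 2 were among those that chose the genes, so this count restates the choice. As a share of the mean FPKM of numbers 1 and 3, the level in number 2 ranged from 10.6% for NOD2 to 66.8% for TRAF1 in the controls, and from 12.9% for BIRC3 to 67.9% for NFKB1 with OGP46.

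The sum of squares of log2(FPKM + 0.1) over the 6 NB4 samples was split into the parts that go with treatment, with sample number and with neither. The number has more levels than treatment, so without any effect it would tend to take the larger part. The number took the larger part for all 10 genes. It took a median of 82.6%, from 45.2% for TRAF1 to 98.5% for TNFAIP3. Treatment took a median of 16.0%, from 1.18% for TNFAIP3 to 38.9% for TRAF1. For TRAF1 the parts were too close for their order to be read. Over all genes tested in NB4, the medians were 30.1% for number and 39.2% for treatment.

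**Figure D3:**
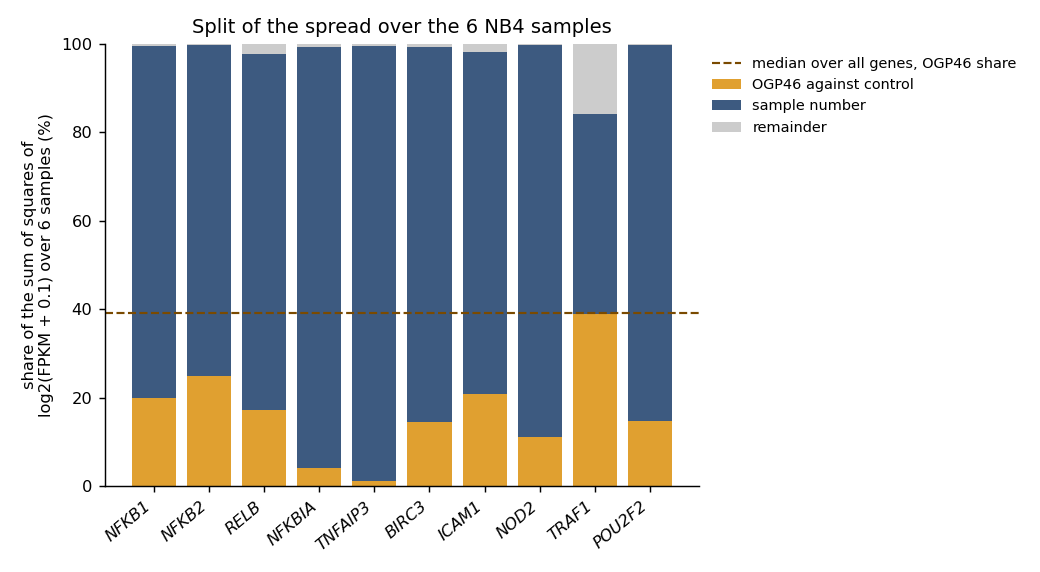
Split of the sum of squares of log2(FPKM + 0.1) over the 6 NB4 samples, in percent, into treatment (orange), sample number (blue) and remainder (grey) for each of the 10 genes. The dashed line is the median share of treatment over all genes tested, 39.2%, and the orange part stays under it for all 10 genes, although that of TRAF1 (38.9%) nearly meets it.

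Markers of other cells and stages moved with treatment and with number in NB4. Of 8 monocyte and macrophage markers, 4 had every OGP46 sample above every control, their summed FPKM ranged from 12.2 to 14.2 in the controls and from 23.4 to 39.4 with OGP46, and CD163, MRC1 and FCGR3A were at 0 throughout. Of 6 myeloid precursor markers, 4 were highest in number 2 in both groups, and 2, CD33 and SPI1, had every OGP46 sample above every control. Their summed FPKM was 2626, 3897 and 3342 in controls 1, 2 and 3 and 1630, 2817 and 2467 with OGP46, of which MPO made up between 85.3% and 92.6%. Without MPO, the sum was 232, 574 and 370 in the controls and 120, 313 and 196 with OGP46. Of 5 B cell markers, 1 was lowest in number 2 in both groups, MS4A1 was at 0, and the sum was 13.5, 8.44 and 14.2 in the controls and 15.9, 7.76 and 14.0 with OGP46. Of 5 T and NK cell markers, 2 were lowest in number 2 in both groups and 1 had every OGP46 sample above every control, CD2 was at 0, and the sum was 70.9, 48.3 and 65.0 in the controls and 101, 62.1 and 95.5 with OGP46. The part of these levels in the results was not tested, and in bulk samples fewer cells of a type and less RNA per cell cannot be told apart. The erythroid markers summed to at most 0.184 FPKM. The markers of Kasumi-1 summed to 1.57 and 1.32 FPKM in the number 2 samples of NB4, within the range of the other NB4 samples.

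In Kasumi-1 cells, the same 10 genes had no common direction across the same-numbered pairs. All 3 same-numbered pairs were higher with OGP46 for 2 of them, NFKBIA and POU2F2, where 31.7% of all genes were, and only POU2F2 had every OGP46 sample above every control, where 17.4% of all genes did. NFKBIA was at 9.26, 10.8 and 11.8 FPKM in the controls and at 12.5, 11.4 and 14.9 with OGP46, and POU2F2 at 0.221, 0.214 and 0.114 and at 0.226, 0.232 and 0.245. The ranges of NFKBIA overlapped, and those of POU2F2 were apart by less than the spread of its controls.

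NFKB1 in Kasumi-1 was at 10.8, 12.2 and 10.7 FPKM in the controls and at 11.5, 11.1 and 10.7 with OGP46. NFKB2 was at 2.23, 2.62 and 1.90 and at 2.67, 2.45 and 2.64. RELB was at 3.86, 4.11 and 3.78 and at 4.58, 4.09 and 4.90. The subunit genes thus overlapped between the groups, and in number 2 each of them was lower with OGP46 than in the control. TNFAIP3 was at 1.02, 1.58 and 1.56 FPKM in the controls and at 1.25, 1.52 and 1.44 with OGP46. ICAM1 was at 3.33, 4.17 and 4.51 and at 4.35, 4.04 and 4.65. Both genes overlapped between the groups and were far lower than in numbers 1 and 3 of NB4. BIRC3 was between 0 and 0.0691 FPKM over the 6 samples, NOD2 between 0 and 0.0744 and TRAF1 between 0.0409 and 0.105. These genes were under the minimum mean of 0.1 FPKM and were not tested in this line.

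For the 7 genes that passed this minimum in Kasumi-1, the difference in log2(FPKM + 0.1) between OGP46 and control was 0.28 ± 0.11 (SE, n = 3 per group) for NFKBIA, 0.26 ± 0.24 for POU2F2, 0.21 ± 0.12 for NFKB2 and 0.20 ± 0.09 for RELB. It was 0.13 ± 0.12 for ICAM1, 0.03 ± 0.17 for TNFAIP3, which turned negative under median centring, and -0.02 ± 0.07 for NFKB1. The difference was positive for 6 of the 7, where 62% of all genes were positive. Its median was 0.20 for the 7, beside 0.05 over all 11835 genes tested. With limma, 0 of the 7 were called without or with the replicate block, where 0.0338% and 0.617% of all genes were called. At a difference of at least 0.58, 0 of the 7 had an unadjusted p below 0.05, where 143 of all 11835 genes did. Number 2 did not stand apart in this line, since the difference from numbers 1 and 3 was between -0.11 for NFKBIA and 0.23 for TNFAIP3, and 0 of the 7 were called, where 0.135% of all genes were. Nothing in the labels ties the numbers of one line to those of the other.

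The OGP46 difference in NB4 minus that in Kasumi-1 was tested as the interaction of line and treatment over all 12 samples. It was positive for all 10 genes, where 75.7% of all genes were positive, with a median of 0.64 beside 0.12 over all 12309 genes tested. BIRC3, NOD2 and TRAF1 were under the minimum in Kasumi-1 and entered this test only through NB4. Nothing is therefore read from this count or this median. The interaction was 0.02 for NFKBIA, which turned negative under TPM scaling and median centring. Among the genes above the minimum in both lines it was largest for ICAM1 at 1.10. Without the block, 0 of the 10 were called higher in NB4, where 0% of all genes were. At a difference of at least 0.58, 0 of the 10 had an unadjusted p below 0.05, where 455 of all 12309 genes did. With the replicate number within each line as a block, ICAM1 (1.10 ± 0.21, SE) and NFKB2 (0.82 ± 0.17) were called, where 1.4% of all genes were, a count that the choice of the genes on their OGP46 changes touches. It was 0 of the 10 when median centring was added to the block.

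The control samples give the levels of these genes without OGP46, a comparison that did not choose them, although the NB4 controls are shared with the contrast that did. In NB4, the order of mean FPKM in the controls was NFKBIA (27.4 ± 12.6, SD, n = 3), ICAM1 (13.2 ± 9.37), NFKB1 (11.0 ± 2.52), TNFAIP3 (9.33 ± 6.72), RELB (2.27 ± 1.44), NFKB2 (2.04 ± 1.22), NOD2 (1.67 ± 1.27), POU2F2 (1.31 ± 0.908), BIRC3 (0.464 ± 0.330) and TRAF1 (0.133 ± 0.0345). Every pair of neighbours in that order had overlapping ranges. In Kasumi-1, the order was NFKB1 (11.3 ± 0.812), NFKBIA (10.6 ± 1.29), ICAM1 (4.0 ± 0.609), RELB (3.92 ± 0.173), NFKB2 (2.25 ± 0.360), TNFAIP3 (1.39 ± 0.316), POU2F2 (0.183 ± 0.0600), TRAF1 (0.0654 ± 0.0345), BIRC3 (0.0335 ± 0.0346) and NOD2 (0.0315 ± 0.0384). There the ranges overlapped for NFKB1 and NFKBIA, for ICAM1 and RELB, for TRAF1 and BIRC3 and for BIRC3 and NOD2, and the other neighbours were separate.

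**Figure D4:**
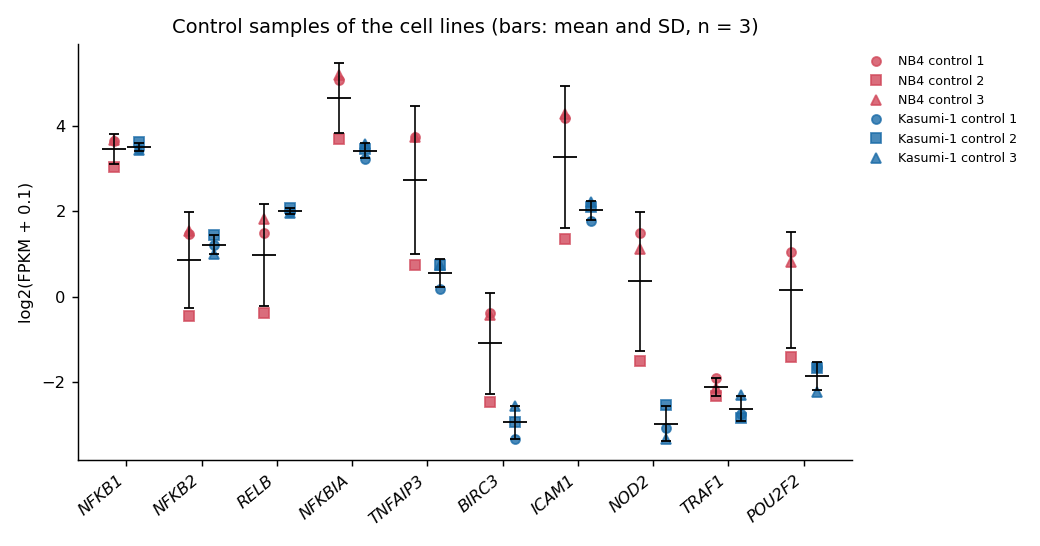
Level of the 10 genes in the control samples of NB4 (red) and Kasumi-1 (blue), as log2(FPKM + 0.1), with the mean and SD of 3 samples. NFKB1, NFKB2 and RELB lie close together or lower in NB4, and number 2 (squares) pulls the NB4 mean down for most genes.

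Of the 7 genes that reached 0.1 FPKM in the controls of both lines, 3 were higher in NB4 by limma and 0 lower. Of all 10896 such genes, 2202 were higher and 2937 lower. In either direction, 42.9% of the 7 and 47.2% of all such genes were called, and nothing is read from so small a count. TNFAIP3 was higher by 2.19 ± 0.69 on the log2(FPKM + 0.1) scale (SE, adjusted p = 0.0182), POU2F2 by 2.00 ± 0.57 (adjusted p = 0.0107) and NFKBIA by 1.23 ± 0.34 (adjusted p = 0.00875). The subunit genes did not pass, with -0.05 ± 0.16 for NFKB1 (adjusted p = 0.770), -0.37 ± 0.46 for NFKB2 (adjusted p = 0.489) and -1.03 ± 0.48 for RELB (adjusted p = 0.0783). ICAM1 did not pass either, at 1.24 ± 0.66 (adjusted p = 0.119), and TRAF1 was under the minimum. BIRC3 and NOD2 were near 0 in Kasumi-1 and entered the test only through NB4, where they are high, so their calls are not read. With them, 5 of 9 were called, all higher in NB4, where 52.4% of all 12302 genes tested were called, 22.7% higher and 29.7% lower. The size of their difference depends on the pseudocount and lay between 0.48 and 3.43 for BIRC3 and between 1.23 and 5.27 for NOD2 with pseudocounts of 1 and 0.01. Without NB4 control 2, the difference became 2.20 for ICAM1, 3.18 for TNFAIP3, -0.35 for RELB, 0.15 for NFKB1 and 0.28 for NFKB2. In that fit 6 of the 9 genes were called, BIRC3 and NOD2 being among the 9. Between 6366 and 6449 of all genes were called when single control samples were left out, so nothing is read from this count.

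The other genes of the pathway were taken from lists of 64 genes. These lists were drawn up with earlier results of these data known, so counts over them are a description. The subunits that are not among the 10 showed little difference in NB4. RELA, the main transactivating subunit, was at 19.0, 19.4 and 20.1 FPKM in the controls and at 20.3, 22.3 and 22.2 with OGP46, a difference of 0.15 ± 0.08 in log2(FPKM + 0.1) (SE, adjusted p = 0.240). REL was at 3.76, 2.70 and 2.83 and at 3.43, 2.97 and 3.97, a difference of 0.16 ± 0.16 (adjusted p = 0.512). Number 2 was not set apart for them, with -0.28 for REL (adjusted p = 0.244) and 0.03 for RELA (adjusted p = 0.895). In Kasumi-1, the OGP46 difference was -0.02 for RELA (adjusted p = 0.922) and 0.36 for REL (adjusted p = 0.152). The difference of these changes between the lines was 0.17 for RELA (adjusted p = 0.575) and -0.20 for REL (adjusted p = 0.711). Between the controls, REL was lower in NB4, at -0.76 (adjusted p = 0.000932), and RELA differed by 0.25 (adjusted p = 0.0164), under the size of 0.58.

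In NB4, 1 of the 59 other pathway genes tested was called higher with OGP46 and 0 lower by limma, where 1.45% of all genes were higher and 0.111% lower. With the replicate block 10 were higher and 0 lower, where 5.06% and 1.15% of all genes were. The called gene was SDC4, a cell surface proteoglycan and textbook target of NF-κB, at 5.06, 3.73 and 5.74 FPKM in the controls and 10.8, 7.54 and 11.2 with OGP46 (1.01 ± 0.19, SE, adjusted p = 0.0432). The count was 0 under TPM scaling, median centring or no filter on low values, and when any sample other than OGP46 sample 2 was left out, so this call does not hold in those fits. The largest differences among the genes called with the block were in the secreted factors IL1B and CXCL8 and in IER3, an early response gene. IL1B was at 2.10, 0.436 and 0.984 FPKM in the controls and at 7.67, 2.14 and 4.33 with OGP46, a difference of 1.97 (adjusted p = 0.0817 without the block and 3.3e-06 with it). CXCL8, the neutrophil chemokine interleukin-8, was at 8.19, 1.67 and 7.69 and at 29.5, 7.20 and 27.8, a difference of 1.91 (adjusted p = 0.121 and 4.7e-07). IER3 was at 2.26, 0.338 and 1.79 and at 3.93, 1.65 and 4.45, a difference of 1.35 (adjusted p = 0.187 and 7.4e-04). These 3 genes were, like the 10, lowest in number 2 in both groups, and within the groups their levels overlapped between control and OGP46, with the exception of IL1B, whose OGP46 samples were all above its controls.

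By list, the median difference in NB4 was 0.62 for the 15 textbook target genes tested, of which 8 were called with the block. It was 0.33 for 5 genes of the IκB family, of which 1 was called with the block, 0.24 for 9 further negative regulators, of which 1 was called, and 0.25 for 6 paralogs and partners of the 10 genes, of which 0 were called. The IKK complex and related kinases had a median of 0.13 over 5 genes and the receptor-proximal adaptors and kinases of 0.24 over 17 genes, with 0 called in both lists. In all, 57 of the 59 genes had a positive difference, where 81.9% of all genes did. Since the lists were made with earlier results of these data known, nothing is read from these counts. In Kasumi-1, 0 of the 57 other pathway genes tested were called, where 0.0338% of all genes were. At a difference of at least 0.58, 2 of them had an unadjusted p below 0.05, where 143 of all 11835 genes did. With the block 1 was called, where 0.617% of all genes were. This was CXCL8, at 0.788, 1.53 and 3.41 FPKM in the controls and 3.66, 3.70 and 7.0 with OGP46 (1.44 ± 0.42, SE, adjusted p = 0.164 without the block and 0.00505 with it). Without the block, 0 of the 60 pathway genes tested differed between the lines in their OGP46 change. At a difference of at least 0.58, 8 of them had an unadjusted p below 0.05, where 455 of all 12309 genes did. With the block 5 were called, all higher in NB4, where 1.4% of all genes were called higher. The 4 largest were IL1B, SDC4, TNF and MAP3K14, of which SDC4 was near 0 in Kasumi-1 and entered the test only through NB4.

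**Figure D5:**
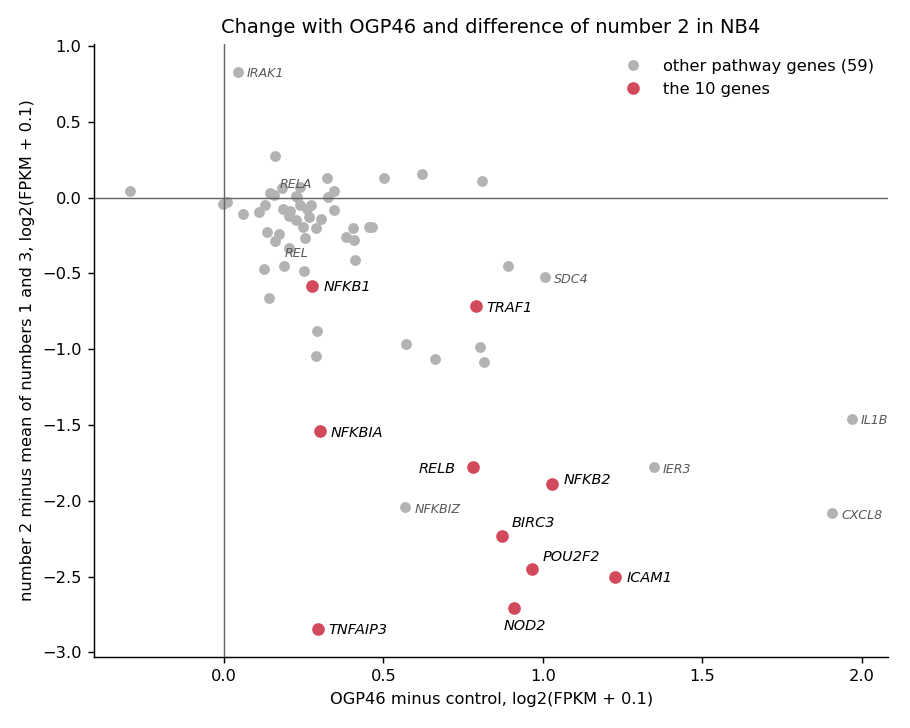
OGP46 minus control (horizontal axis) against number 2 minus the mean of numbers 1 and 3 (vertical axis) in NB4, both as differences of log2(FPKM + 0.1), for the 10 genes (red) and the 59 other pathway genes tested (grey). The 10 genes lie to the right of 0 and below 0, and most of the grey points, RELA and REL among them, lie near 0 on the vertical axis.

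Number 2 of NB4 was also low for part of the wider pathway. Of the 59 genes tested, 11 were lower in number 2 and 1 was higher by limma, where 3.06% of all genes were lower and 1.63% higher. Earlier results of these data were known when the lists were made, so these counts are a description and no independent evidence. The lower genes were 5 of 15 targets, 3 of 5 genes of the IκB family, 2 of 9 negative regulators and 1 of 6 paralogs and partners. The largest were CXCL8 (-2.08 ± 0.10 in log2(FPKM + 0.1), SE, adjusted p = 1.4e-07), NFKBIZ (-2.04 ± 0.12, adjusted p = 8.1e-07), IER3 (-1.78 ± 0.20, adjusted p = 1.2e-04) and IL1B (-1.46 ± 0.13, adjusted p = 1.5e-05). NFKBIZ encodes a nuclear IκB protein and was at 6.15, 1.11 and 5.27 FPKM in the controls and at 7.95, 2.10 and 7.38 with OGP46. The gene that was higher in number 2 was IRAK1, a kinase of the Toll-like and interleukin-1 receptor pathway, at 44.9, 74.9 and 44.3 FPKM in the controls and 48.1, 83.3 and 40.7 with OGP46 (0.83 ± 0.09, adjusted p = 8.6e-05). In Kasumi-1, 0 of 57 pathway genes were called in number 2, where 0.135% of all genes were. At a difference of at least 0.58, 1 of the 57 had an unadjusted p below 0.05, where 152 of all 11835 genes did.

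Between the controls, 19 of 60 other pathway genes were higher in NB4 and 9 were lower by limma, where 22.7% of all genes were higher and 29.7% lower. Of the 56 that reached 0.1 FPKM in both lines, 16 were higher and 8 lower, 42.9% in all, which is not above the 47.2% of all such genes. TNF, the cytokine, was at 44.7, 19.2 and 39.0 FPKM in NB4 and at 0.155, 0.592 and 0.358 in Kasumi-1 (6.22 ± 0.39 in log2(FPKM + 0.1), SE, adjusted p = 1.1e-06). SDC4 (5.51), CCL20, a chemokine (4.22), and IER3 (2.99) had the next largest differences, but their means in the Kasumi-1 controls were all under 0.1 FPKM. They entered the test only through NB4, so their calls are not read, and the sizes depend on the pseudocount. Of the genes lower in NB4, PTGS2, the cyclooxygenase 2 gene, was listed at 0 in all 3 NB4 controls and at 0.359, 0.215 and 0.197 FPKM in Kasumi-1, through which alone it entered the test. PLAU, which encodes urokinase, was at 4.69 ± 0.645 (SD, n = 3) against 10.9 ± 1.10 FPKM (adjusted p = 2.1e-05), CXCL2, a chemokine, at 0.369 ± 0.167 against 0.919 ± 0.348 (adjusted p = 0.010), and TRAF6, a ubiquitin ligase of the receptor pathways, at 1.33 ± 0.132 against 2.83 ± 0.126 (adjusted p = 5.4e-05).

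The genes whose pattern over the 6 NB4 samples was most like the mean pattern of the 10 were found among 9505 other genes that averaged 1 FPKM or more. Likeness was the root mean square difference of the centred log2(FPKM + 0.1) profiles. The nearest was CD48 (0.0953), a surface protein of leukocytes, with 11.8, 3.03 and 9.81 FPKM in the controls and 17.8, 4.65 and 17.3 with OGP46. It was followed by MAML2 (0.110), IRAK2 (0.152), NFKBIZ (0.153) and ZC3H12A (0.174). ZC3H12A, which encodes an RNase that degrades inflammatory mRNAs, had 12.9, 3.32 and 12.5 FPKM in the controls and 17.6, 4.29 and 16.5 with OGP46. IRAK2, a kinase of the interleukin-1 receptor pathway, had 1.82, 0.525 and 1.80 and 3.55, 1.01 and 3.16. Each of these had its lowest value in number 2 and a higher value with OGP46 in every pair, which is the pattern used to find them.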

How the data were processed

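mRNA-seq libraries of 12 samples (NB4 and Kasumi-1, control and OGP46, 3 each) had been made by the authors with a stranded mRNA kit from RNA extracted with Trizol. The authors deposited 1 FPKM value per gene symbol and sample, which is already scaled for exon length and mapped fragments. The submitters' processing notes name Trimmomatic, HISAT2, Cufflinks, HTSeq and hg38, without roles; versions and the annotation are not given in the sources used here. FPKM give no read counts, so depth is unknown, no counting interval is given, and precision rests on 3 samples per group. The 27 symbols turned into dates were left out.

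log2(FPKM + 0.1) was compared with limma 3.58.1 in R 4.3.3 (empirical Bayes with a mean-variance trend), over genes that averaged 0.1 FPKM or more over the samples fitted. Genes were called at a Benjamini-Hochberg adjusted p below 0.05 over all genes tested and a log2 difference of at least 0.58. Such differences understate the change of low genes. The interaction and the contrast of number 2 against numbers 1 and 3 came from the same kind of model. The methods of the study name no pairing, so the fit without the replicate number comes first. Deviations of same-numbered samples from their group means correlated with r = 0.355, 0.622 and 0.197 across 11750 genes in NB4 and 0.218, 0.157 and 0.395 across 11835 genes in Kasumi-1, which are not independent replicates. The highest r with a sample of another number was 0.224, -0.34 and 0.175 in NB4 and 0.101, 0.0275 and -0.217 in Kasumi-1. Number 3 of NB4 was thus barely set apart over these genes. Over the 6264 genes that averaged 5 FPKM or more in NB4, the r of same-numbered samples was 0.662, 0.85 and 0.439. The highest r with another number was then 0.289, -0.517 and 0.224. The numbers were taken to pair control and OGP46 samples, a reading from the data only. All ratios within pairs and all fits with the block rest on it. The fits of the OGP46 changes and of the controls were run on simulated data with independent noise per sample. That noise held no difference between sample numbers, so the choice between fits with and without the block was not tested.

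The 10 genes and all lists were chosen with earlier results of these data known. Named were the 10, RELA and REL, the called pathway genes (without or with the block), at most 4 per direction and comparison, the 5 genes nearest in pattern, and marker genes. In the closing section ICAM3 is named outside that rule. Alternatives were pseudocounts of 1 and 0.01, no filter, a minimum of 1 FPKM, TPM scaling, median centring, the block and leaving out samples. The block with TPM scaling and the fit without both NB4 samples of number 2 were chosen after seeing the data.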

Additional observations from a re-analysis of the deposited data

Results flagged for a closer look

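In the fit with the replicate number within each line as a block, the OGP46 change in log2(FPKM + 0.1) was higher in NB4 than in Kasumi-1 by 1.10 for ICAM1 and 0.82 for NFKB2. Both genes had been chosen on these changes, so their passing limma's interaction test is no independent evidence, and 0 of the 10 genes passed when median centring was added to the block. Among the other pathway genes the change differed, with the block, for IL1B (1.55 ± 0.30, SE, adjusted p = 0.0342), TNF (0.96 ± 0.15, adjusted p = 0.0209), MAP3K14 (0.84 ± 0.17, adjusted p = 0.0421) and ICAM3 (0.64 ± 0.09, adjusted p = 0.0155). Without the block the adjusted p was between 0.171 and 0.567 for these 4. SDC4 was listed at 0 in all Kasumi-1 samples but control 2, at 0.0216 FPKM, and entered the test only through NB4, so its difference of 1.10 rests on its change in NB4. MAP3K14, the NF-κB inducing kinase NIK, was at 0.629, 0.565 and 0.688 FPKM in the NB4 controls and 0.986, 0.806 and 0.898 with OGP46, and at 0.914, 1.01 and 1.06 and 0.632, 0.726 and 0.873 in Kasumi-1. It was higher with OGP46 in all 3 pairs of NB4 and lower in all 3 pairs of Kasumi-1. ICAM3, a paralog of ICAM1, was at 22.9, 27.4 and 28.5 FPKM in the NB4 controls and 31.7, 39.8 and 40.4 with OGP46, and at 15.8, 17.5 and 12.1 and 14.9, 14.4 and 11.7 in Kasumi-1. TNF was between 0.138 and 0.592 FPKM in the Kasumi-1 samples.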

How the results depend on the processing

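In NB4, the count of all genes called with OGP46 went from 183 to 117 with a pseudocount of 1, 4 without the filter, and 0 under TPM scaling or median centring. It rose to 730 with the replicate block, 391 with the block and median centring, 448 with the block and TPM scaling, and 543 without both number 2 samples. For the 10 genes the count of 0 became 6 with the block, 5 with the block and median centring, 6 with the block and TPM scaling, and 6 without number 2. For the other pathway genes the count of 1 became 0 under TPM scaling, median centring or no filter, 2 with a minimum of 1 FPKM, 10 with the block, 5 and 6 with the block and median centring or TPM scaling, and 7 without number 2. Leaving out single samples gave between 0 and 396 for all genes, 0 for the 10 and between 0 and 3 for the pathway genes. The highest values came without OGP46 sample 2, and the other 5 samples left out in turn gave at most 2 genes and 0 pathway genes.

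In Kasumi-1, the count of 4 among all genes became 2 with a pseudocount of 1, 18 under TPM scaling or median centring, 0 without the filter, 24 with a minimum of 1 FPKM, 73 with the block and 93 with the block and median centring. It was between 0 and 11 when single samples were left out, with 0 without control 1 or OGP46 sample 1, 2 without control 3, 9 without control 2 and 11 without OGP46 sample 3. The pathway count of 0 became 1 in both fits with the block. For the interaction, the count of 0 over all genes became 12 with a pseudocount of 1, 185 with the block and 81 with the block and median centring, and between 0 and 1 when single samples were left out; that of the 10 genes became 2 with the block. Between the controls, 5 of the 10 genes became 2 with a minimum of 1 FPKM and between 4 and 6 when single samples were left out, with 4 without control 1 of either line. Between the controls, the count over all genes was then between 6366 and 6449 and that of pathway genes between 26 and 31. For number 2, the NB4 count of 552 became 278 with a pseudocount of 1, and the Kasumi-1 count of 16 became 7 with a pseudocount of 1 or TPM scaling. The causes were not tested. The block changed no other call of the 10 genes.

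FPKM hold no depth, so counting error is unknown. TRAF1, BIRC3, NOD2 and POU2F2 in Kasumi-1 and TRAF1 in NB4 were at levels where the pseudocount sets the size of a difference. The pseudocount also changed the size of the number 2 difference in NB4 for BIRC3, NOD2, POU2F2, NFKB2 and RELB. NB4 control 2 was at 0.0830 FPKM for BIRC3, 0.252 for NOD2 and 0.276 for POU2F2.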
